A study of Mus musculus with 4 samples.

Results

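The strongest H3K27ac regions of the mdx HRTΔIKKβ heart were taken as the regions of its list with a findPeaks score of at least 45 on chromosomes 1 to 19. There were 462 of them among 22935 regions on these chromosomes (2.01%, 95% Wilson interval 1.84 to 2.20). H3K27ac was profiled by ChIP-seq of whole hearts from 7-month-old mdx mice, which lack dystrophin, with 1 ChIP library and 1 input library per genotype. In mdx HRTΔIKKβ mice the floxed gene for IKKβ was deleted by a cre recombinase under the Myh6 promoter, which is active in cardiomyocytes, so the fibroblasts, endothelial cells and immune cells of the same heart kept IKKβ. The mdx IKKβf/f control was an age-matched littermate that carried the floxed gene without cre. Since each genotype had a single ChIP library, nothing could be set against the spread between hearts, and every interval given here covers counting error over regions only.

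Acetylation of histone H3 at lysine 27 is laid down by the acetyltransferases p300 and CBP and removed by histone deacetylases. It marks active promoters and active enhancers, and in heart it is dense at sarcomere, metabolic and cardiac transcription factor genes. IKKβ phosphorylates the inhibitor that holds NF-κB in the cytoplasm, after which NF-κB dimers enter the nucleus and bind κB sites in DNA.

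Sequences are shown for 7 of the strongest regions, as the central 240 bases on the plus strand of mouse assembly NCBIM37, whose coordinates are those of mm9. The first 4 show repeated sequence, of which the one at rank 4 lies under the threshold used below for regions made of repeats, and the others show a coding exon and the regions of a pair of T-type calcium channel genes. Capitals mark matches on either strand to the κB letters, searched as GGG, any 5 bases and CC.
Rank 2 by score, between genes, chr16:3237033-3237272: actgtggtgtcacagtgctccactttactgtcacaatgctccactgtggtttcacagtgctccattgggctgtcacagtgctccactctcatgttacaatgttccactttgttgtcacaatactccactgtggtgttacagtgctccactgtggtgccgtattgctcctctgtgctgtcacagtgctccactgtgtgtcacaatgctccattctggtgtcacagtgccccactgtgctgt
Rank 3 by score, upstream of Mylk2, chr2:152727353-152727592: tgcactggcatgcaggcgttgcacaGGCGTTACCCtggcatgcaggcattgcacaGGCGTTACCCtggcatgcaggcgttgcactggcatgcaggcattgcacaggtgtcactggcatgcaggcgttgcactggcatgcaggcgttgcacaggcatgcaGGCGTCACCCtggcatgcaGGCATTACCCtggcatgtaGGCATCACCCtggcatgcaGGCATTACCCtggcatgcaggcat
Rank 4 by score, shared with mdx IKKβf/f, chr8:12034493-12034732: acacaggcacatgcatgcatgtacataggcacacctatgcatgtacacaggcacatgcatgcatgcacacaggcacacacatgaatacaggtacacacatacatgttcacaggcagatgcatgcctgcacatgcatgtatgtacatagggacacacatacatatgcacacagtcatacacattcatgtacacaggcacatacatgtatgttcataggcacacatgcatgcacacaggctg
Itpr2 intron 9, chr6:146351164-146351403: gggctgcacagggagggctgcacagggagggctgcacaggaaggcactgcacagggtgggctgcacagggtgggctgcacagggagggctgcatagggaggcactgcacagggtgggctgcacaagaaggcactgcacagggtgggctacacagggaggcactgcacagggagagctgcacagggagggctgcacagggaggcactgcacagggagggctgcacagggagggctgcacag
Ripk4 exon 8, coding, chr16:97964998-97965237: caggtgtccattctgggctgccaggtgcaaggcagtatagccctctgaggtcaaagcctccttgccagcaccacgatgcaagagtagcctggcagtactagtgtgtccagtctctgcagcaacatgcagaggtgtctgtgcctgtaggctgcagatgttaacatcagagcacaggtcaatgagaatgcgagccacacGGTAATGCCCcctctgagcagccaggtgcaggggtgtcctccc
Cacna1h exon 35, coding, chr17:25512667-25512906: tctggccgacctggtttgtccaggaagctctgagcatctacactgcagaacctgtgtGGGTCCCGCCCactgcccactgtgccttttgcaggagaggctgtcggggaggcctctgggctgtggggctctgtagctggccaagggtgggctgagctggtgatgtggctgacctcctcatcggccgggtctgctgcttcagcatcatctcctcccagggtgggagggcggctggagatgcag
Cacna1i intron 4, chr15:80158561-80158800: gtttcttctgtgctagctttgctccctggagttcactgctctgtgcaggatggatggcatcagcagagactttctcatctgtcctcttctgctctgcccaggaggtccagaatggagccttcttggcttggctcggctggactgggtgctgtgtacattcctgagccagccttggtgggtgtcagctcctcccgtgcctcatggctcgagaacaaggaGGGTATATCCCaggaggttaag
All 6 matches in the sequence upstream of Mylk2 lie in its repeat units. The Itpr2 sequence, also repeated throughout, has no match. Capitals are present in 4 of the 7 sequences.

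The score is read here as the number of tags in the highest 500 bp window of a region. This reading is not exact. Of 293 of the strongest regions that were exactly 500 bp wide, 256 had fewer tags by the normalised column than by the score, with ratios of 0.888 to 1.445 and a median of 0.977. The regions were chosen by this score, so the score, the normalised tags and the fold over input are given as descriptions with no test. Scores ran from 45 to 73 with a median of 47, and normalised tags (per 10000000 tags in the library) from 6.4 to 17.5 with a median of 7.69. The caller expected 15.615 tags per window, so on this reading a score of 45 was 2.88 times and a score of 73 was 4.67 times that level. At the edge of the rule, 115 regions had a score of 45 with 6.4 to 11.5 normalised tags, and 161 regions just outside had a score of 44 with 6.24 to 12.5. The high scores did not go with high enrichment over input. Fold over input ran from 4.0 to 28.6 with a median of 4.77, against 5.0 in the other regions. At least 8-fold enrichment was listed for 30 of the strongest regions (6.49%) and for 21.0% of the others. Input tags had a median of 6 in the strongest regions and 4 in the others. The strongest regions were also wider, with 63.4% at the minimum of 500 bp against 84.4%.

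**Figure D1:**
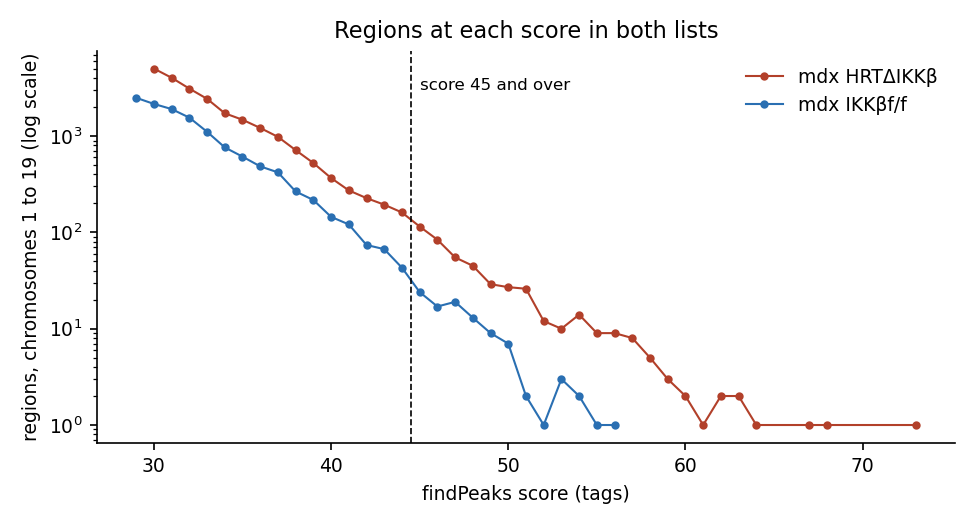
Number of regions on chromosomes 1 to 19 (log scale) at each findPeaks score in tags, for the mdx HRTΔIKKβ list in red and the mdx IKKβf/f list in blue. The 462 strongest regions lie right of the dashed line, where the red list reaches 73 and the blue list 56.

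The highest score, 73, was that of a region in the last exon of Grid2ip, exon 21 of 21, outside the coding sequence (chr5:144153017-144153517). Grid2ip encodes delphilin, a scaffold protein of cerebellar synapses. It held 11.2 normalised tags at 4.0-fold over input, and its window had 62.6% GC. The next scores, 68 and 67, belonged to regions between genes. The first was chr16:3236903-3237403, with no protein-coding start within 355.2 kb. The other, chr2:152727223-152727723, lay 9.6 kb upstream of Mylk2, the skeletal muscle myosin light chain kinase. Of the 12 regions with the highest scores, 8 had their centre in no gene, 9 were enriched less than 6-fold and 2 overlapped a region of the mdx IKKβf/f list.

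A region with a score of 64 on chromosome 8 (chr8:12034300-12034927) was 192.6 kb from the nearest protein-coding start. A region with a score of 63 on chromosome 19 (chr19:54406537-54407163) lay 287.2 kb from the start of Adra2a, the α2A adrenergic receptor. The same score was found in intron 16 of Pik3c3, the class III phosphoinositide kinase of autophagy and endosome traffic. This Pik3c3 region was the most enriched of the 12, at 17.16-fold with 2 input tags. Others of the 12 were at chr11:84553562-84554062 with 62, 75.1 kb from that of Mrm1, in the coding part of exon 1 of Asphd2 with 61, 21.2 kb upstream of Scn9a with 60, in coding exon 8 of Ripk4 with 60, and at chr7:77101397-77102361 with 59. Scn9a encodes a sodium channel of sensory neurons and Ripk4 a kinase of keratinocyte differentiation. None of the genes that these 12 regions lie in is a defining gene of cardiomyocytes, but 8 of the 12 had their centre in no gene, so few genes are covered.

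Words of 12 bases that recurred within a window were more frequent in the strongest regions than in the others. A window was counted as made of repeats where at least 20% of its 12-base words occurred more than once in its 500 bases. This measure was chosen after the sequences had been seen. It held for 44 of the 462 strongest regions (9.52%, 7.17 to 12.5) and for 459 of 22473 other regions (2.04%, 1.87 to 2.24). The share was 1.49% at a score of 30, 3.19% at 40 to 44, 6.40% at 45 to 49, 16.9% at 50 to 54 and 17.8% at 55 and over. In the mdx IKKβf/f list, which the rule did not use, it was 4.24% (2.44 to 7.26) in the 283 strongest regions, with scores of at least 42, and 1.61% in the others. At least 50% of words recurred in 18 strongest regions (3.90%) and in 0.57% of the others. Simple repeats were not more frequent in the strongest regions. At least 10 units of a 2-base repeat were in 22 of them (4.76%) and in 6.36% of the others. A run of 12 equal bases was in 4 (0.87%) and in 2.19%. No interval was computed for these shares.

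The regions made of repeats included those that ranked 2, 3 and 5 by score. Upstream of Mylk2, 91.8% of words recurred, most often after 19 bases, with 9 input tags at 4.19-fold. In intron 9 of Itpr2, the gene of an inositol trisphosphate receptor of the sarcoplasmic and nuclear envelope, 76.3% recurred, most often after 29 bases, with 3 input tags at 11.44-fold. At the start of Krtap4-6, a keratin-associated protein gene of hair, 64.8% recurred, most often after 45 bases. The region that ranked 4 by score stayed under the threshold at 15.3%. Median input tags were 6 both in the strongest regions made of repeats and in those that were not, and median fold was 4.94 and 4.77. The authors kept uniquely aligned reads, and whether the number of repeat copies in these mice equals that of the assembly was not tested. Runs of at least 31 bases were shared with another of the strongest regions by 20 of the 462 (4.33%). No like share of the other regions is given, so this count does not set the strongest regions apart.

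**Figure D2:**
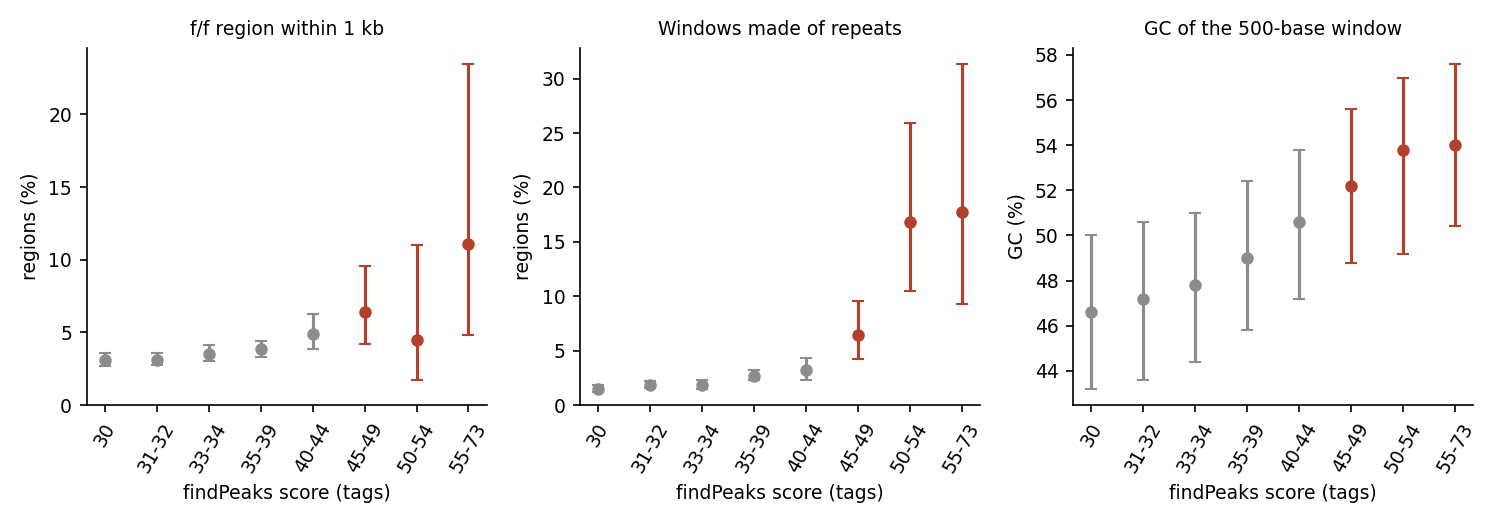
Share of mdx HRTΔIKKβ regions (%) with an mdx IKKβf/f region within 1 kb (left) and with a window made of repeats (middle), and GC of the window (%, right), by findPeaks score in tags. Points are shares with 95% Wilson intervals in the left and middle panels and medians with quartiles in the right panel, and red marks scores of 45 and over. All 3 are highest at scores of 55 to 73, where the shares are 11.1% and 17.8% and the median GC is 54%. The 11.1% is 5 of 45 regions (4.84 to 23.5). The left share does not rise at every step, with 6.40% at 45 to 49 and 4.49% at 50 to 54.

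The windows of the strongest regions were rich in G and C. Their median GC was 52.6% (quartiles 49.2 to 56.2), against 47.8% (44.2 to 51.2) in the other regions and 41.9% over chromosomes 1 to 19. Median GC was 46.6% at a score of 30 and 54% at 55 and over, and over the 8 score ranges of the plot of GC by score each median was above the one before. The mdx IKKβf/f list showed the same, with 46.2% at a score of 29 and 52.2% in its strongest regions. ChIP and sequencing yield can depend on GC, and its part in these scores was not tested. Windows like CpG islands (GC of at least 50% and a CpG ratio of at least 0.6) were 16 of the 462 (3.46%, 2.14 to 5.55) and 0.78% of the others.

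The κB letters (GGG, any 5 bases and CC, either strand) occurred in 243 of 462 windows (52.6%, 48.0 to 57.1), and in 48.3% of all 22935 windows. Within windows of like GC the strongest regions did not hold the letters more often. With 50 to 55% GC, 48.6% (41.2 to 56.0) of the strongest regions and 62.9% (61.7 to 64.2) of the others held the letters. With 45 to 50% GC the values were 40% (31.5 to 49.1) and 47.2% (46.2 to 48.3), and with 55% or more they were 71.9% and 76.6%. Below 45% GC they were 28.6% (15.3 to 47.1) of 28 regions and 28.5%. The intervals were apart at 50 to 55% GC only. Only 6 of the 44 windows made of repeats (13.6%) held the letters, against 237 of the 418 other strongest regions (56.7%, 51.9 to 61.4). This contrast was not particular to the strongest regions. Among the other regions of the list, 92 of 459 windows made of repeats (20.04%) and 48.83% of the rest held the letters. Repeats were not separated in the comparison within GC ranges. Of the letters of cardiac factors, the T-box letters AGGTGTG were in 16.7% (13.6 to 20.3) of the strongest windows against 13.2% of all windows. The GATA letters AGATAA were in 15.4% against 21.5%, the MEF2 motif in 6.93% against 7.13%, the NKX2-5 letters CACTTNA in 21.2% against 23.7% and the TEAD letters CATTCC in 27.3% against 26.9%. The AP-1 letters TGANTCA were in 11% against 14.1% and the TATA letters TATAAA in 11.5% against 21.1%. These shares are not matched for GC, and several orders changed within GC ranges. With 45 to 50% GC, the TATA letters were in 20.9% of the strongest regions and 20.2% of the others, the AP-1 letters in 13.9% and 14.7%, the T-box letters in 13.9% and 14.0% and the MEF2 motif in 12.2% (7.39 to 19.4) and 6.94%. With 50 to 55% GC, the GATA letters were in 18.5% and 16.2%, the T-box letters in 22.5% (17.0 to 29.3) and 14.2% and the TATA letters in 7.51% and 11.8%. The T-box and MEF2 differences did not hold in every GC range. With 55% GC or more, the values were 13.01% and 13.95% for T-box and 6.16% and 3.28% for MEF2. For MEF2 they were 4.62% and 5.73% with 50 to 55% GC, and 3.57% and 9.72% below 45%. In the mdx IKKβf/f list, the T-box letters were in 10.6% of the strongest regions and 12.33% of the others. The letters searched for CTCF were in 0 of 462 windows, which allows up to 0.82%, and in 2 of all 22935 windows. Letters this rare could hardly be found among 462 windows, so their absence says nothing about CTCF sites. A match is a description of letters and not a bound site.

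The letters CACGCA, picked after the windows had been compared, occurred in 91 of the strongest windows (19.7%, 16.3 to 23.6) against 10.2% of the others. They were in 18.2% of the strongest regions not made of repeats. In the mdx IKKβf/f list, whose regions were not used to pick them, they were in 18.7% (14.6 to 23.7) of the strongest regions and 10.3% of the others. None of these shares is matched for GC. Within each GC range the strongest regions of both lists held the letters more often than the others. In mdx HRTΔIKKβ the intervals were apart in each range below 55% GC. With 55% or more they overlapped, with 19.18% (13.62 to 26.32) and 14.37% (12.87 to 16.01). In mdx IKKβf/f the intervals were apart at 45 to 50% GC only, with 18.84% (11.35 to 29.61) and 10.24% (9.36 to 11.18).

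The position of the strongest regions in genes was compared with that of the other regions of the list (mm9, GENCODE vM1, by the centre of the region). Within 3 kb of an annotated start lay 76 (16.5%, 13.3 to 20.1) against 12.1%. In exons lay 35 (7.58%, 5.50 to 10.4) against 3.38%, in introns 155 (33.6%) against 34.4%, just downstream of genes 9 and distal to genes 187 (40.5%, 36.1 to 45) against 48.2%. Of the 35 exon regions, 29 were centred in coding sequence and 6 in untranslated exon sequence. The strongest mdx IKKβf/f regions had like shares, with 15.9% in promoters and 6.36% in exons. The difference in promoters went with GC. Among windows of at least 50% GC, 21.0% (16.9 to 25.8) of the strongest regions and 19.9% of all regions were in promoters. Below 50% GC the values were 6.29% and 8.10%.

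**Figure D3:**
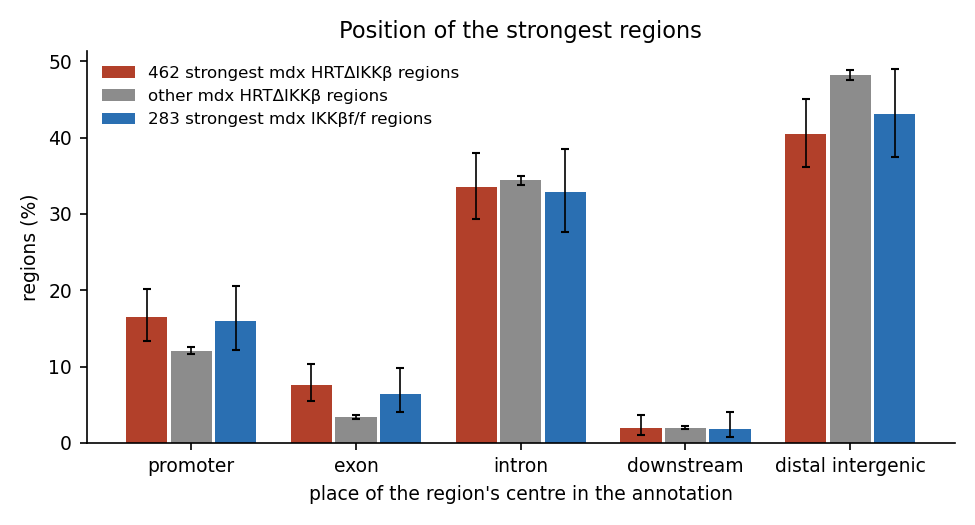
Share of regions (%) by the place of their centre in the annotation, for the 462 strongest mdx HRTΔIKKβ regions, the other regions of that list and the 283 strongest mdx IKKβf/f regions. Bars are shares with 95% Wilson intervals, and distal intergenic is the largest class in each set, at 40.5% of the strongest regions.

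Within 1 kb of a protein-coding start lay 30 of the strongest regions (6.49%, 4.59 to 9.12), against 3.81% of the others. These shares are not matched for GC. The mdx IKKβf/f list did not show this difference, with 3.89% (2.18 to 6.83) of its strongest regions and 3.88% of all its regions. The highest of the 30 mdx HRTΔIKKβ regions was in Asphd2 with a score of 61, 321 bp inside the gene. Next were 2300003K06Rik with 55, Elf5 with 54, Krtap4-6 with 54 and an internal start of D430042O09Rik with 53. Elf5 encodes an ETS factor of mammary gland and trophoblast. Starts of Helq, a DNA helicase of repair, Ly6d, Lepr, the leptin receptor, Accsl, Myo15b, Col19a1, a collagen, and Wbp2nl had scores of 50 to 52. The Lepr region, 44 bp from a start, had a CpG ratio of 0.66. The Col19a1 window was made of repeats, with 23.7% of words recurring. None of these 12 starts belonged to a gene of the sarcomere list, which holds 22 of 21418 protein-coding genes, so this absence says little.

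The other genotype was then searched at the same places. A region of the mdx IKKβf/f list lay within 1 kb of 30 of the 462 strongest regions (6.49%, 4.59 to 9.12). Over all 22935 regions of the list this share was 3.52%. An overlap of at least 1 bp was found for 21 (4.55%, 2.99 to 6.85) against 1.74% of all regions, and an mdx IKKβf/f region within 10 kb for 113 (24.5%, 20.8 to 28.6) against 17.0%. The median distance to the nearest was 31.4 kb for the strongest regions and 50.7 kb for the others. Within 1 kb, the share was 8.39% (4.87 to 14.1) below 50% GC, where all regions gave 2.91%. At 50% GC or more it was 5.64% (3.60 to 8.74) against 4.68%. Without the regions made of repeats it was 6.70%. The reverse was also counted. Of the 283 strongest mdx IKKβf/f regions, 34 (12%, 8.73 to 16.3) had an mdx HRTΔIKKβ region within 1 kb, against 6.40% of that whole list.

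The strongest mdx IKKβf/f regions were 283 of the 12540 regions of that list. Of the 30 regions with an mdx IKKβf/f region within 1 kb, 3 had one that was itself among these 283. The 3 included chr7:145759931-145760431, 170.8 kb from Tcerg1l, with 48 and 45, and a region of chromosome 18, 366.7 kb from Prr16, with 47 and 49. Among the 21 overlapping pairs the mdx IKKβf/f score ran from 29 to 49 with a median of 34, and 39 to 553 bp were shared. Divided by the tags the caller expected in each library, the score was higher in mdx HRTΔIKKβ in 19 of the 21. The regions were chosen for a high score in that library, so this direction is given by the choice.

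Overlapping regions with high scores included the one on chromosome 8 (64 against 30 in mdx IKKβf/f), one in coding exon 8 of Matn4 (58 against 34) and one in intron 3 of Fam19a5 (57 against 30). Matn4 encodes a matrilin of the extracellular matrix and Fam19a5 a small secreted protein. Then came 2300003K06Rik (55 against 31), a region 31.6 kb from Siglech (51 against 39), Kcnh1, a voltage-gated potassium channel gene (50 against 32), Wbp2nl (50 against 30), Ttc7 (48 against 35), the region near Tcerg1l, Carkd (47 against 33) and the start of Shc2 (47 against 34).

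**Figure D4:**
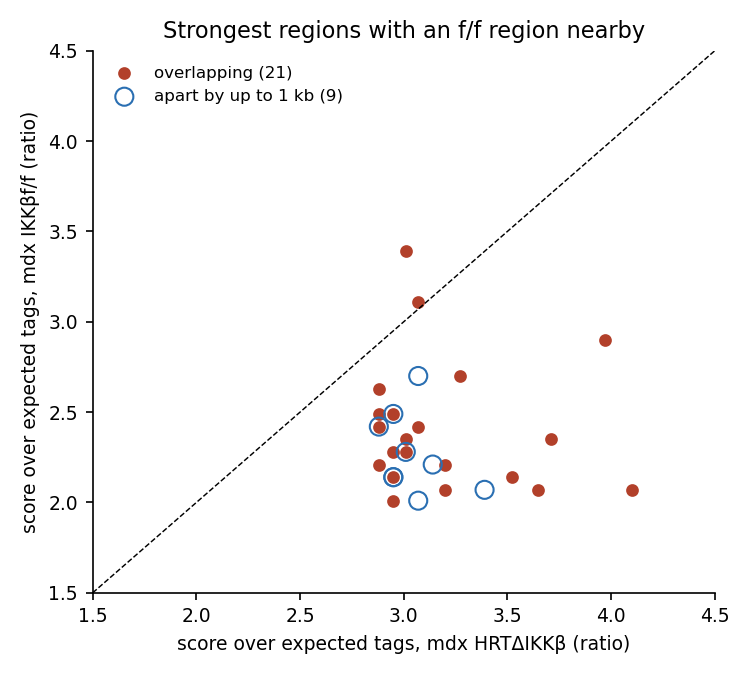
Score over the tags expected per window (ratio) in mdx HRTΔIKKβ (horizontal) and mdx IKKβf/f (vertical) for the 30 strongest regions with an mdx IKKβf/f region within 1 kb. Filled points overlap (21) and open circles do not (9), circles can coincide with points, the dashed line marks equal ratios, and 28 of the 30 lie below it.

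The strongest regions were mostly single. Another of the 462 lay within 50 kb of 24 regions (5.19%, 3.52 to 7.61), and these formed 12 groups of 2 regions each. No group had 3. The nearest of the other strongest regions was at a median distance of 1101 kb. Any other region of the list lay within 10 kb of 31.8% (27.7 to 36.2), against 24.1% of the other regions. The group on chromosome 8 with scores of 45 and 64 spanned 22.3 kb. The closest pairs were in intron 4 of Cacna1i (2.0 kb, scores 45 and 45), in introns 44 and 45 of Dnahc10 (2.3 kb, 54 and 45) and across the ends of Tpsg1 and Cacna1h (2.7 kb, 47 and 45). Other groups were at Tbcd and B3gntl1, in Fam19a5, near Zfp316, at Ninj2 and B4galnt3, in Atp2b2, near Rbm19 and near Foxc2. No mdx IKKβf/f region lay in or within 1 kb of the span of 7 of the 12 groups. Over all regions of the list, 17.0% had one within 10 kb and 49.9% within 50 kb. A share for spans of the same width was not computed. By chromosome, the strongest made up 1.20% of the regions of chromosome 14 (0.69 to 2.08) and 3.19% of those of chromosome 17 (2.24 to 4.52).

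Of 21418 protein-coding genes, 255 (1.19%) had one of the strongest regions in the body or within 3 kb, and 5987 (27.95%) had any region of the list. The median length of these 255 genes was 73.2 kb, that of all genes was 15.5 kb, and 7.36% of genes over 300 kb had one against 0.33% of genes under 10 kb. A region of the mdx IKKβf/f list was present in 131 of the 255 (51.4%). By length, this was 50% of those of 30 to 100 kb and 91.9% of those over 300 kb, while 25.7% and 83.7% of all genes of these lengths had one.

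The 12 genes with more than 1 of the strongest regions were Gm20388 (3), a gene model of 4434.9 kb that runs through many genes, and, with 2 each, Fam19a5, Dnahc10, Grm4, Fstl4, Atp2b2, Clstn2, Cacna1h, Med27, Tpsg1, Kif6 and Cacna1i. Atp2b2 encodes a plasma membrane calcium pump of hair cells and neurons. Its 2 regions, in introns 2 and 1, both scored 48, with 54.8% and 53.0% GC, and an mdx IKKβf/f region lay 0.8 kb from the one in intron 1. Clstn2 encodes a synaptic calsyntenin, Dnahc10 an axonemal dynein heavy chain and Med27 a subunit of the Mediator complex. In Grm4, the gene of a metabotropic glutamate receptor, a region with a score of 54 was centred in coding exon 11 of 12, and another with 46 in intron 4.

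Genes of heart function were read from 15 lists with 236 genes, and 11 lists had none of the strongest regions in the gene body or within 3 kb, where 1.19% of all genes had one. There was none at the 16 cardiac transcription factors, the 22 sarcomere and Z-disc genes, the 14 ion channel and gap junction genes, the 16 genes of energy metabolism, the 9 natriuretic and stress genes, the 13 dystrophin-associated proteins or the 21 genes of the NF-κB pathway. The same held for the chromatin regulators, the fibroblast and matrix genes, the smooth muscle genes and the 12 housekeeping genes. Within 50 kb of the gene body there was one for Cpt1b and Fabp3, which act in fatty acid use, among the 16 genes of energy metabolism, where 3.53% of all genes had one. Other regions of the list lay at 8 of the 22 sarcomere genes (36.4%), at 3 of the 16 cardiac transcription factors and at 2 of the 12 housekeeping genes. Promoters of 4 of the 22 sarcomere genes (18.2%) held a listed region, against 9.39% of all genes. This was not common to the cardiac lists or limited to them. The counts were 3 of the 14 ion channel and gap junction genes, 1 of the 16 cardiac transcription factors and 0 of the 16 energy metabolism genes. Of the 12 housekeeping genes, 2 (16.7%) had one. No interval was computed for these shares. With 1.19% of all genes holding one of the strongest regions, lists of this size are too short for a count of 0 to set them apart. At the gene for IKKβ itself, Ikbkb (chr8:23769684-23817061), neither list had a region, so the lists hold no check of the deletion.

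The calcium handling list had strongest regions at 2 of 34 genes (5.88%), Cacna1h and Itpr2. Any region of the list lay at 22 of the 34 (64.7%), and the genes had a median length of 70.7 kb. Of all genes of 30 to 100 kb, 42% had a listed region and 1.51% one of the strongest. Cacna1h, at 59.5 kb, is of this length, but Itpr2 is 393.9 kb long. Of all genes over 300 kb, 93.8% had a listed region and 7.36% one of the strongest. Cacna1h encodes the T-type calcium channel Cav3.2. One of its regions (chr17:25510296-25510921) scored 47 with 8.01 normalised tags at 4.77-fold, and lay just beyond the end of Cacna1h in intron 2 of the mast cell tryptase gene Tpsg1. The other (chr17:25512537-25513037) scored 45 with 9.13 normalised tags at 6.52-fold, in coding exon 35 of 35, the exon shown above. The nearest mdx IKKβf/f region was 72.5 kb away. Itpr2 had 1 region, the repeat of intron 9, with a score of 46 and 9.61 normalised tags at 11.44-fold.

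Cacna1i, which encodes the related channel Cav3.3, was not on a list. Its regions in intron 4 both scored 45, with 7.04 and 6.88 normalised tags at 4.19-fold and 4.92-fold, and the nearer mdx IKKβf/f region was 4.8 kb away. Single strongest regions lay in Cacng2 (score 58), Cacna2d3 (47, at 9.72-fold) and Cacnb4 (46), which encode auxiliary subunits of voltage-gated calcium channels. The family was picked after these values were seen. It counted 5 of 25 genes with the prefix Cacn (20%), against 1.19% of all genes and 3.82% of genes of 100 to 300 kb, and among the 25 genes 21 had any listed region, 13 had an mdx IKKβf/f region and the median length was 111.0 kb. Of genes with the prefix Kcn, for potassium channels, 4 of 93 (4.30%) had one of the strongest regions. These were Kcnh1, Kcnt1, Kcnab2 and Kcnh5.

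**Figure D5:**
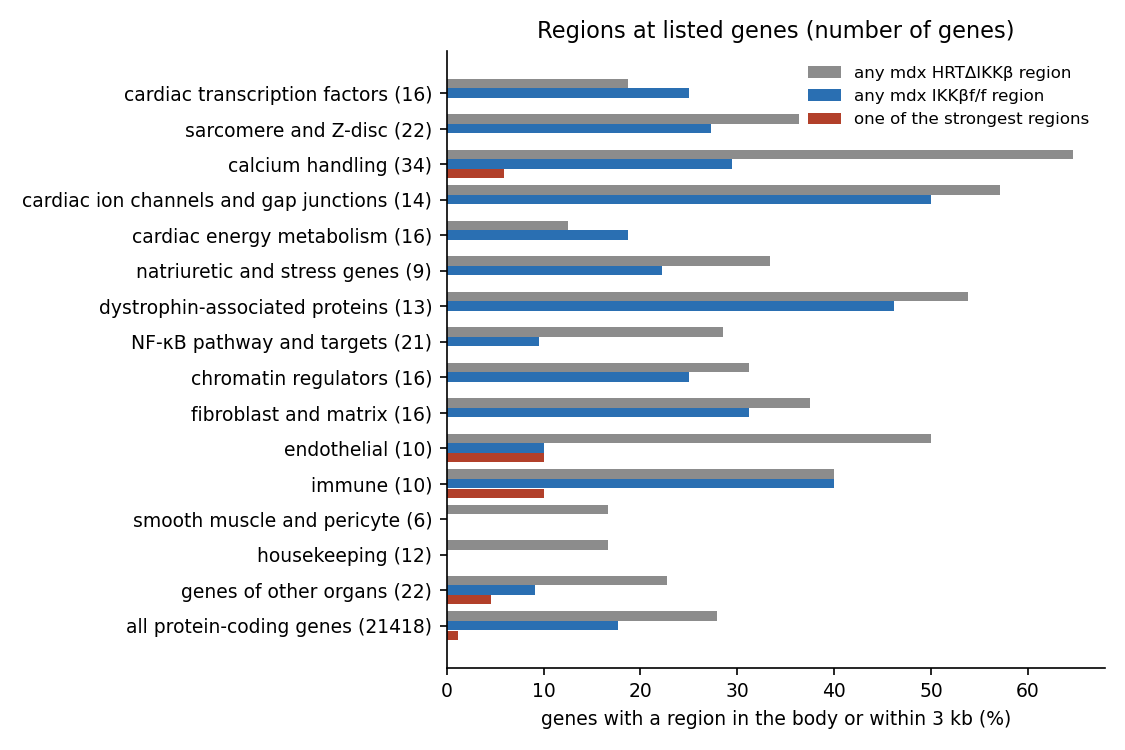
Genes of each list (%, number of genes in brackets) with a region in the body or within 3 kb, for any mdx HRTΔIKKβ region, any mdx IKKβf/f region and the strongest mdx HRTΔIKKβ regions. Red bars are present for 4 lists and for all protein-coding genes (1.19%), and the calcium handling list has the longest grey bar at 64.7%.

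The markers of other cell types and organs gave 3 genes with a strongest region. Vwf, which encodes von Willebrand factor of endothelium, had one in intron 44 with a score of 46 at 5.15-fold, as 1 of 10 endothelial genes. Emr1, the macrophage marker F4/80, had one in intron 2 with a score of 47 at 13.73-fold, as 1 of 10 immune genes, and 2 mdx IKKβf/f regions lay elsewhere in or near that gene. Umod, which encodes uromodulin of the kidney tubule, had one in coding exon 3 with a score of 48 at 7.44-fold, as 1 of 22 genes of other organs. No mdx IKKβf/f region lay within 50 kb of these 3 regions. One lay within that distance of 64.1% of the 462 and of 49.9% of all regions of the list, so its absence at a single region is not rare. Its absence at all 3 together was not tested. In whole heart, more cells of a type and more acetylation per cell cannot be told apart.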

How the data were processed

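H3K27ac ChIP-seq lists of 1 mdx HRTΔIKKβ and 1 mdx IKKβf/f heart library were used. Inputs entered only through the input columns. The authors mapped uniquely aligned reads to mm9 with Bowtie2 and called regions with HOMER findPeaks against input, at 4-fold or more. Versions are not given in the sources used here. The authors deposited the findPeaks score, a count of tags, and normalised tags, a signal scaled to 10000000 tags per library. The deposited fold is a ratio of ChIP tags scaled to input depth over input tags, with 0.5 in place of 0, and a deposited p-value of the caller was not used as evidence. ChIP depth was 57852347 tags for the mdx IKKβf/f heart and 62458751 for the mdx HRTΔIKKβ heart.

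Members and gene lists were chosen with earlier results of these data known. Named regions were the 12 highest scores, up to 12 overlapping an mdx IKKβf/f region, the largest groups within 50 kb, genes with 2 or more regions, up to 12 regions within 1 kb of a protein-coding start and all regions at listed genes. Others are said to have been picked afterwards. Regions were placed by their centre on GENCODE vM1, with promoters of 3 kb on either side of a start. Composition was read from 500 bp windows. The threshold for the strongest mdx IKKβf/f regions was 45 scaled by ChIP depth (41.68, used as 42). Shares have Wilson 95% intervals, and no test was made. On X and unplaced sequence 46 regions were left out, 1 of them with a score of at least 45. A planned soft-masked share was not computed because the genome used here is not masked. Routines were tested on simulated data, where 14 of 14 checks passed. The software was SciPy 1.17.1, pandas 2.3.3 and NumPy 2.4.6 under Python 3.11.15, with figures by matplotlib 3.10.9. Motifs were searched by fixed letters on both strands. 1 named region is not reported here.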

Additional observations from a re-analysis of the deposited data

How the results depend on the processing

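The results were recomputed under 29 alternatives, 19 planned and 10 chosen after seeing the data, and 15 of the values stayed within the interval of the reported value or within 1.5 times of a count. The number of strongest regions was 1684 at a score of at least 40, 134 at 50 and 30 where 8-fold enrichment was also asked. The share with an mdx IKKβf/f region nearby was 4.55% for overlap and 24.46% within 10 kb. The promoter share was 8.44% with 1 kb on either side, 13.2% with protein-coding genes only, 20.15% at a score of at least 50, 6.29% below 50% GC and 21.0% at 50% GC or more. The share in clusters was 1.73% within 10 kb and 20.35% within 200 kb. Median GC was 53.9% at a score of at least 50. A score of 45 in both lists gave 99 strongest mdx IKKβf/f regions in place of 283. No alternative with an interval put the share near an mdx IKKβf/f region below that of the same regions of the whole list. The intervals did not all exclude the list value. For the 319 strongest regions with 50% GC or more, the share of 5.64% had an interval of 3.60 to 8.74, which holds the 4.68% of the list. No paired analysis was possible because each genotype has 1 ChIP library and no test was made. Depth per library limits which regions were listed at all, and regions under 4-fold or under the caller's threshold were not analysed here.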

Other observations

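By normalised tags the order differed from that by score. The most tags, 17.5 and 17.0, were in the wide regions of coding exon 2 of Mtnr1b, the melatonin receptor MT2 (chr9:15666672-15667937), and of intron 4 of Glb1l2 (chr9:26600654-26602422), both with a score of 49. They were enriched 4.80-fold and 4.33-fold, with 13 and 14 input tags. The highest folds, 28.6 and 26.31, were those of a region 135.9 kb from Pcsk1 and of a region in intron 4 of Ccdc64, each with 1 input tag. These regions were picked after their values were seen.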
